A study of Mus musculus with 30 samples.

Results

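The results below describe the genotype-specific regions of H3K4me3, the trimethylated form of lysine 4 on histone H3, in microglia with and without the microRNA gene Mir137. All regions of the deposited cKO list, 1331, were set against all regions of the cWT list, 834. Together these were 2165 of the 22399 regions listed for the 5 antibodies of the series. Samples of both groups were sorted primary microglia from the brains of C57BL/6J mice labelled as 8 weeks old. The cWT mice were Mir137+/+;Tmem119-CreERT2 and the cKO mice Mir137loxP/loxP;Tmem119-CreERT2, so both groups carried the inducible Cre allele, and both received tamoxifen on 7 consecutive days. Cre is driven from Tmem119, which marks microglia, so other brain cells of these mice were not the target of the deletion. About 100000 cells were used per genotype. The labels list 3 H3K4me3 replicates per genotype and do not say whether each came from a separate mouse. Since the replicates appear only as merged lists, the spread among them cannot be given, and every test below describes the lists alone.

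H3K4me3 is deposited by the SET1 and MLL methyltransferase complexes, mostly on the nucleosomes just past active transcription start sites. The mark is strongest at promoters rich in CpG dinucleotides, where CXXC-domain proteins bring the methyltransferases, and it is read by proteins such as TAF3 and BPTF. In microglia, the resident macrophages of the brain, it marks both housekeeping genes and the genes of microglial identity and of the interferon response. Mature microRNAs are known for silencing messenger RNAs in the cytoplasm, and some are also found in the nucleus.

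Most gene-start regions with a known promoter window lay at CpG-rich promoters, and the sequences of 4 such promoters are printed here as examples. Each is the 300-base RefSeq window of GRCm38.p6, from 250 bases before to 50 after a gene start, and each lies wholly inside a listed region. Rab5a (chr17:53478984-53479283, plus strand) encodes an early endosome GTPase and Itsn1 (chr16:91729121-91729420, plus strand) a scaffold of endocytosis. Pcx (chr19:4510222-4510521, plus strand) encodes pyruvate carboxylase and Fos (chr12:85473640-85473939, plus strand) an AP-1 transcription factor. Capitals mark matches, on either strand, to GGGCGG (the box bound by SP and KLF factors), CACGTG (an E-box), CCAAT (the NFY box) and TATAAA (the TATA box).
Rab5a (cKO list): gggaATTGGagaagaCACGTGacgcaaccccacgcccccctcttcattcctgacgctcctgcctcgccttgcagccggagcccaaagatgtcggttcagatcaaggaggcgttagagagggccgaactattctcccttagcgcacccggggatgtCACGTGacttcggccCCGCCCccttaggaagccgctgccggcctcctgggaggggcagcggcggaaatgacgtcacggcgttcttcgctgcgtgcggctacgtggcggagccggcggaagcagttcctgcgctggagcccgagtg
Itsn1 (cKO list): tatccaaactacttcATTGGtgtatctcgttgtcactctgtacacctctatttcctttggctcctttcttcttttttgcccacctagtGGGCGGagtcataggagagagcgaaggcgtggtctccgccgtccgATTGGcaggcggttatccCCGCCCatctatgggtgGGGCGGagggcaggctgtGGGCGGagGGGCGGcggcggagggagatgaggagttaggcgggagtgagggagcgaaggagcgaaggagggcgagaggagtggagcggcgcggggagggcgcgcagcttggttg
Pcx (cWT list): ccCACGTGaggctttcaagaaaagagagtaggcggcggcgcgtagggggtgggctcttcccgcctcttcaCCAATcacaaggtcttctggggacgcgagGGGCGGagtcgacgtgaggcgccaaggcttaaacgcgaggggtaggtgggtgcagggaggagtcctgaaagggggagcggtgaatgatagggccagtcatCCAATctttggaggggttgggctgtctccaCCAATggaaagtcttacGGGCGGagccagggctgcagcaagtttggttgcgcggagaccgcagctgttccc
Fos (cWT list): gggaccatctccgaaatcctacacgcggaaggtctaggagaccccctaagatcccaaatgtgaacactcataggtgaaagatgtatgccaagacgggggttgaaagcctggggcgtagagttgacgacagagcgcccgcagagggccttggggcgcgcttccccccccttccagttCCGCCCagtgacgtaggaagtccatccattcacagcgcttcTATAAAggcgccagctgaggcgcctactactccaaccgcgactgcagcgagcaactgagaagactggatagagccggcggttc

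GC content of these windows was 65.3% for Rab5a, 61.7% for Itsn1, 61.7% for Pcx and 58.7% for Fos. Observed over expected CpG, a measure of how far CpG escapes its usual depletion, was 0.94 for Rab5a, 0.88 for Itsn1, 0.75 for Pcx and 0.77 for Fos. The windows came from 9 cKO and 14 cWT candidates, ranked by how many kinds of motif they held, so their motifs are not typical of the lists. All 4 windows held the SP/KLF box. Fos was the window of the 4 with a TATA box.

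The same composition ran through both lists. Of 666 promoter windows of protein-coding genes that met the cKO list, 80.8% were CpG-rich (GC of at least 50% and observed over expected CpG of at least 0.6), with a 95% exact interval of 77.6 to 83.7%. Of 420 windows that met the cWT list, 82.6% were CpG-rich (78.6 to 86.1%). Over all 21238 windows the share was 45.1%. Counted by gene-start region, the CpG-rich shares of the cKO and cWT lists, 74.5% and 75.8%, differed by -1.31 percentage points, and the adjusted p of the two-sided Fisher's exact test was 0.682. These and all later intervals cover the counting of regions only, since read depth is unknown.

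The SP/KLF box GGGCGG was present in 70.1% of windows under the cKO list and 71.0% under the cWT list, against 46.2% of all windows and 76.8% of all 9585 CpG-rich windows. The TATA box TATAAA was present in 5.41% of cKO and 5.95% of cWT windows, against 12.6% of all windows and 4.52% of the CpG-rich ones. These shares lay nearer to those of CpG-rich promoters than to those of all promoters. The E-box CACGTG, which itself contains CpG, was in 12.2% of cKO windows (9.78 to 14.9%) and 8.10% of cWT windows (5.67 to 11.1%), against 11.6% of CpG-rich windows, and the 2 intervals overlapped. The NFY box CCAAT was in 41.1% of cKO windows (37.4 to 45.0%) and 40.5% of cWT windows (35.7 to 45.3%). It was in 38.2% of all windows and 36.1% of CpG-rich windows.

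Motifs of immune factors were in few windows of either list. The Pu.1 sequence GAGGAAGT was in 2.402% of cKO and 4.05% of cWT windows, against 3.13% of all windows and 2.33% of CpG-rich windows. The core of the interferon response element, GAAANNGAA, was in 5.71% of cKO and 4.29% of cWT windows, against 8.13% of all and 5.26% of CpG-rich windows. The AP-1 site TGANTCA was in 3.30% and 5%, against 6.99% of all and 3.23% of CpG-rich windows. The NF-kB site GGGANTTCC was in 2.402% and 1.90%, against 1.84% of all and 2.46% of CpG-rich windows. The exact interval of each of these shares, over the windows of its list, held the share of CpG-rich windows, except for Pu.1 in the cWT list (2.38 to 6.402%). All matches are counts of letters on either strand of the 300-base window, and the boxes can overlap one another.

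The mature arms of the deleted microRNA are shown because the complement of the miR-137-3p seed was searched in the same windows. Both come from RefSeq, with the seed (bases 2 to 8) in capitals, and the gene lies at chr3:118433857-118433929.
mmu-miR-137-5p: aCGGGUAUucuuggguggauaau
mmu-miR-137-3p: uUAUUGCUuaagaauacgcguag
The DNA complement of the 3p seed, AGCAATA, was in 1.05% of promoter windows under the cKO list, 0.476% under the cWT list, 1.69% of all windows and 0.762% of CpG-rich windows. No listed H3K4me3 region gave a reading of Mir137 itself: the nearest lay 1074 kb away in the cKO list and 2719 kb away in the cWT list, so the deletion rests on the labels. Spi1, the Pu.1 gene, had no region at its start in either list. Its nearest cWT region lay 27.97 kb away, at the start of Psmc3, a proteasome ATPase gene (chr2:91053946-91054403).

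Regions of both lists centred just downstream of the gene start, over the position of the first nucleosomes of the transcribed unit. A gene-start region overlapped 2 kb on either side of the start of a protein-coding gene. This held for 1057 of 1331 cKO regions, 79.4% (77.1 to 81.6%), and 683 of 834 cWT regions, 81.9% (79.1 to 84.5%). The difference, cKO minus cWT, was -2.48 percentage points (Newcombe interval -5.82 to 0.977). The two-sided Fisher's exact test gave p = 0.165, or 0.464 adjusted over 10 comparisons of the lists. The median midpoint lay 180 bp downstream of the start in the cKO list (quartiles 36.5 and 299.5 bp, 879 regions whose gene has a known strand). It lay 180 bp downstream in the cWT list too (27 and 322.5 bp, 575 regions). Midpoints were downstream in 79.3% of cKO and 77.0% of cWT regions.

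**Figure D1:**
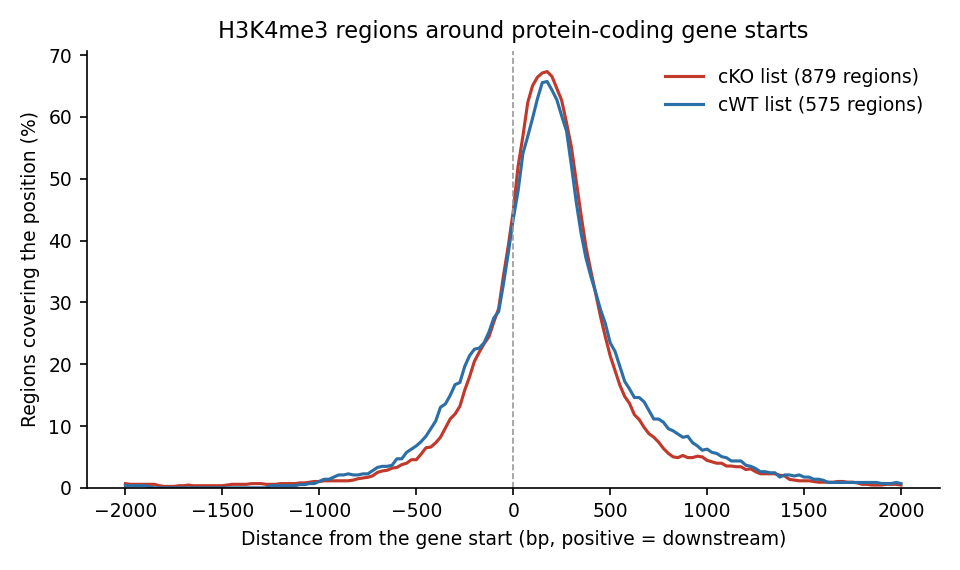
Share of H3K4me3 regions (vertical axis, %) that cover each position around the start of their gene (horizontal axis, bp, positive values downstream), for the cKO list (red) and the cWT list (blue). Both curves peak 175 bp downstream, at 67.3% of cKO and 65.7% of cWT regions, and at the start itself 44.7% and 43.5% of regions cover the position.

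Regions were narrow beside a whole promoter. Their median width was 380 bp in the cKO list (quartiles 307 and 501.5 bp, 169 to 1259 bp in all) and 394 bp in the cWT list (quartiles 296 and 525.75 bp, 158 to 1670 bp in all). The start site itself was inside 34.0% of cKO and 33.8% of cWT regions. A region of the cKO list lay at the starts of 2 or more genes in 140 cases, and a region of the cWT list in 69, as at divergent promoters.

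H3K4me3 regions lay at gene starts more often than those of any other antibody of the series. Both genotypes together, 80.4% of H3K4me3 regions (78.6 to 82.0%) lay at a start, against 54.5% for Pol II Ser5P (RNA polymerase II phosphorylated at serine 5 of its tail), 51.3% for Pol II, 30.6% for H3K27ac and 30.3% for Pu.1. Each of the 4 differences passed the two-sided Fisher's exact test, and the largest of the 4 adjusted p-values was 1.83e-107. Among regions with a deposited p-value under 0.05 this order did not hold, as the 16 such H3K4me3 regions lay mostly elsewhere.

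The regions with the lowest deposited p-values were few, and 12 of 16 lay away from coding starts. The sources used here do not state what these p-values test. They had a median of 0.853 in the cKO list and 0.846 in the cWT list, and only 10 cKO and 6 cWT regions were under 0.05. The lowest deposited adjusted p-value was 0.132 in the cKO list and 0.0826 in the cWT list. Of the 10 cKO regions under 0.05, 9 lay away from coding starts, and of the 6 cWT regions, 3 did. In the cKO list the lowest p, 3.61e-04, belonged to chr2:58425936-58426461 (deposited signal 45.3), 68.4 kb by its midpoint from the nearest listed start of Acvr1c, an activin-type receptor gene. In the cWT list the lowest, 1.42e-04, belonged to chr3:149052457-149053019 (signal 51.1), 98.1 kb from the nearest listed start of Adgrl2, an adhesion receptor gene, and this region overlapped a cKO Pol II region. The next of the cWT list, chr8:23095361-23095812 (signal 45.1), lay inside Ank1, with its midpoint 54.9 kb from the nearer end of that gene.

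The exceptions at gene starts were of different kinds. In the cWT list Oasl1, an interferon-induced member of the oligoadenylate synthetase family, had a region at chr5:114922298-114922742 with a signal of 39.9 and a deposited p of 0.00113, the third lowest of that list. The other 2 were 9130401M01Rik, an uncharacterized gene (signal 29.3) and Pex14, a peroxisomal import gene (signal 24.3). In the cKO list the gene start was that of Adgrf2, an adhesion receptor gene, at chr17:42743978-42744397 (signal 26.99), and this region overlapped a cKO Pu.1 region.

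**Figure D2:**
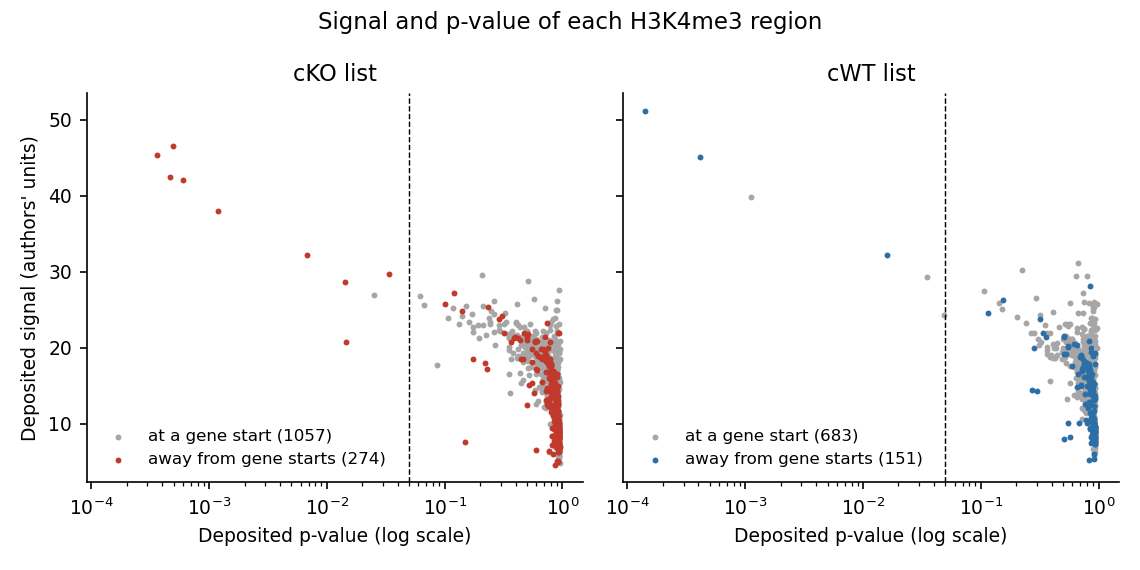
Deposited signal (vertical axis, authors' units) against deposited p-value (horizontal axis, log scale) for each region of the cKO list (left) and the cWT list (right). Regions at a gene start are grey and regions away from starts coloured, and the dashed line marks 0.05, left of which lie 10 cKO and 6 cWT regions.

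The strongest regions at gene starts belonged to genes of varied function. In the cKO list the highest signals at a start were at Cops2, a COP9 signalosome subunit (29.6), H1f2, a linker histone (28.8), Tsc22d2 (27.7), Adgrf2 (26.99) and Tmem170 (26.8). Next were Pou2f1, which encodes the transcription factor OCT1 (26.4), Fbxo8 (26.2), Zfp367 (26.1), Ankrd17 (25.8) and Fis1, a mitochondrial fission gene (25.6). In the cWT list they were at Oasl1 (39.9), Pip4k2a, a phosphoinositide kinase (31.1), Zfp143, a promoter-binding factor (30.3), Uspl1 (29.4), Fam76b (29.4) and 9130401M01Rik (29.3). Fbxo8 (27.5), Slc38a1, a glutamine transporter (27.2), Arhgap12 (26.6) and Zfx (26.02) completed the 10. The signal is the authors' value on an unstated scale and is not compared between lists. Fbxo8, an F-box gene, stood among the 10 highest of both lists, with regions that overlapped by 4 bp.

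Several genes carried more than 1 region. Gtf2a1, a subunit of the general transcription factor TFIIA, had 3 cKO regions, of which chr12:91589090-91589490 and chr12:91589491-91589990 abut with no base between them. Cul4a, a ubiquitin ligase scaffold, had 2 abutting cKO regions shared with its neighbour Pcid2. The predicted gene Gm10406 had 3 and belongs to a multi-copy family, so its regions are uncertain. In the cWT list Hivep2, a zinc finger factor, had 2 regions covering 1481 bp, and Dusp7, Trim8, Zfx and Pou2f2 had 2 each. Regions of the same list within 1 kb of each other made up 43 cKO and 42 cWT regions.

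The cKO and cWT lists, each deposited as specific to 1 genotype, met at some promoters. By 1 bp or more, 44 cKO regions (3.31%) overlapped 45 cWT regions (5.40%), and 85 cKO and 88 cWT regions lay within 1 kb of a region of the other list. At least 1 region lay at the start of 1173 protein-coding genes in the cKO list, 5.36% of the 21887 in the table, and of 737 in the cWT list, 3.37%. Both lists reached 102 genes. These were 8.70% of the cKO genes, beside the 3.37% of all protein-coding genes in the cWT list. They were 13.8% of the cWT genes, beside the 5.36% of all protein-coding genes in the cKO list. Apart from the 102, 1071 genes were in the cKO list only and 635 in the cWT list only. Thus 62.8% of genes with regions of a single list were in the cKO list.

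At 95 of the 102 genes the regions of both lists lay at the same start site, as 79 pairs of regions. Of these pairs, 39 overlapped, by 2 to 194 bp (median 61 bp), and 40 did not, with gaps of 4 to 1129 bp. The closest midpoints, 217 bp apart, were at Pts, a gene of tetrahydrobiopterin synthesis, with the cKO region at chr9:50528242-50528473 and the cWT region at chr9:50528449-50528700. Hint2 followed at 225 bp, the divergent pair Fbxo2 and Fbxo44 at 227 bp, Casp4, the inflammatory caspase that senses cytosolic lipopolysaccharide, at 236 bp, and Trim56 at 248 bp. Rbm34 (267 bp), Pcx (269 bp), Nme2 (273 bp), and Ccdc112, tied with Pggt1b (278 bp), completed the closest. Ccdc112 and Pggt1b share this pair of regions and have no known strand. The cKO region lay 1616 bp from the counted end of Ccdc112, so it may not mark the start of that gene. At Rab5a the cKO region (chr17:53478841-53479520) covered the promoter printed above and the cWT region (chr17:53479502-53480032) overlapped the end of that region by 19 bp. At Pcx the printed promoter lay inside the cWT region (chr19:4510153-4510525), and the cKO region (chr19:4510483-4510733) overlapped the end of that region by 43 bp and ran on downstream. In 64 pairs with a known strand the cKO region was the downstream one in 34 and the cWT region in 30. A pair at genes of opposite strands, such as Fbxo2 and Fbxo44, was counted once, and its direction depends on which gene was used.

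**Figure D3:**
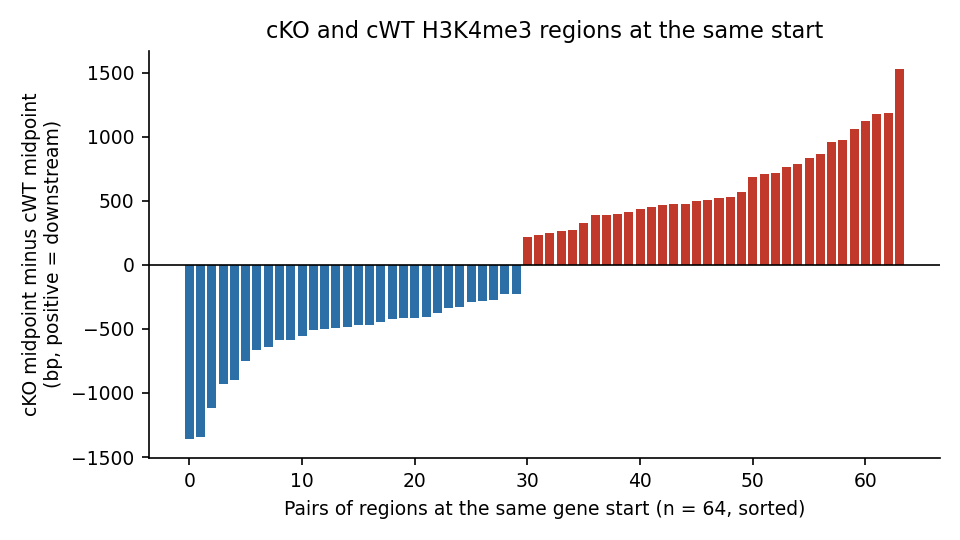
Distance from the cWT to the cKO midpoint (vertical axis, bp, positive where the cKO region is downstream) for 64 pairs of regions at the same gene start, sorted (horizontal axis). The cKO region was downstream in 34 pairs (red) and the cWT region in 30 (blue), with a median distance of 502 bp over all 79 pairs.

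Regulatory genes were among those reached by both lists. Dnmt3a, a de novo DNA methyltransferase, had a cWT region at chr12:3806560-3807635 and a cKO region at chr12:3807517-3808413, which overlapped by 119 bp. Ccnd1, encoding cyclin D1, had a 100 bp overlap between its regions, and Smyd3, a lysine methyltransferase, had a 128 bp overlap. At Junb, an AP-1 gene, the regions were 16 bp apart, and at Ctss, encoding the lysosomal protease cathepsin S, 391 bp apart. At Cdk6, a reported miR-137 target, they were 557 bp apart. Myd88, an adaptor of Toll-like receptors, had regions 513 bp apart.

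Overlap with the other antibodies was counted for both lists. Of cKO regions 54.2% (51.4 to 56.9%), and of cWT regions 55.3% (51.8 to 58.7%), were in no other antibody's list. The cKO Pol II Ser5P list overlapped 21.6% of cKO and 22.8% of cWT H3K4me3 regions, the cKO Pol II list 16.6% and 17.4%, and the cWT H3K27ac list 15.4% and 17.7%. The difference, cKO minus cWT, had an interval of -4.10 to 2.42 percentage points for the cKO Pol II list and of -4.80 to 2.41 for the cKO Ser5P list. Neither interval excluded 0. The other 5 lists overlapped under 5% of either. None of the 8 differences passed the two-sided Fisher's exact test after adjustment over 10 comparisons.

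**Figure D4:**
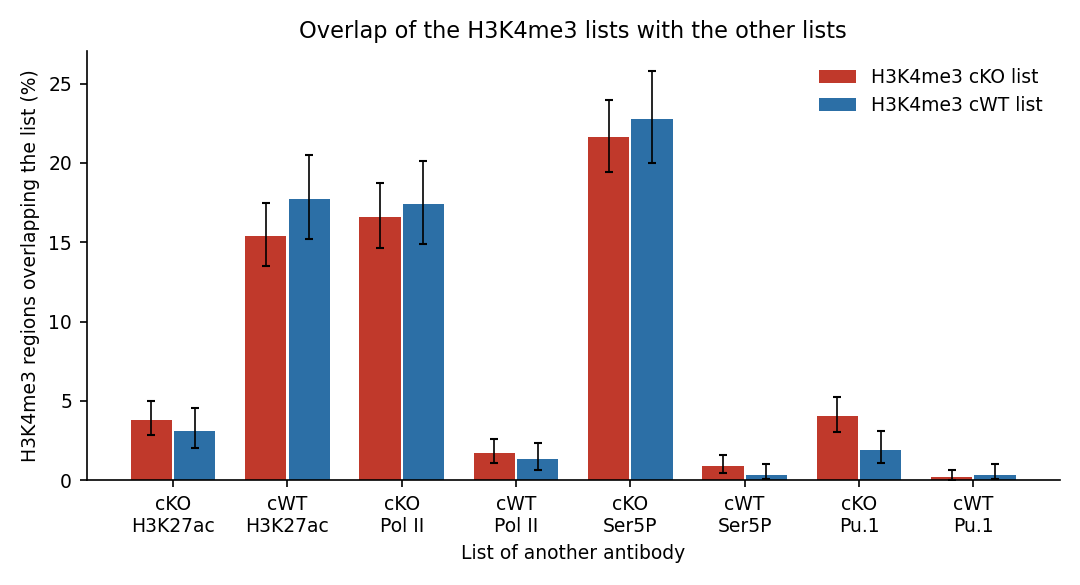
Share of H3K4me3 regions (vertical axis, %) that overlap each list of another antibody (horizontal axis) by at least 1 bp, for the cKO (red) and cWT (blue) H3K4me3 lists, with 95% exact intervals over regions as bars. The tallest pair is the cKO Ser5P list at 21.6% and 22.8%, and the cKO Pu.1 pair stands at 4.06% and 1.92%.

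The lowest p of these comparisons was for Pu.1. The cKO Pu.1 list overlapped 54 cKO H3K4me3 regions (4.06%, 3.06 to 5.26%) and 16 cWT regions (1.92%, 1.10 to 3.10%). The two-sided Fisher's exact p was 0.00583, or 0.0583 adjusted, which misses 0.05. The lowest adjusted p of all the alternatives run, 0.0353 by the same exact test, came without chromosomes X and Y. Of the overlapping regions, 36 of 54 in the cKO list and 7 of 16 in the cWT list lay away from coding starts. There, 36 of 274 cKO regions (13.1%, 9.37 to 17.7%) and 7 of 151 cWT regions (4.64%, 1.88 to 9.32%) overlapped the cKO Pu.1 list, while at gene starts 1.70% and 1.32% did. In the labels' protocol the H3K4me3 and Pu.1 antibodies share a catalogue number, and its part in the overlap was not tested. Examples at gene starts were Cx3cr1, the fractalkine receptor of microglia (cKO region chr9:120068319-120068505), Itsn1, Adgrf2 and Plac8.

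Regions of 3 or more other antibodies met 37 cKO and 26 cWT H3K4me3 regions. In the cKO list these lay at genes such as Fmc1, an assembly factor of ATP synthase, Copg1, a coatomer subunit, Psmd14, a proteasome deubiquitinase, and Anapc4, a subunit of the anaphase-promoting complex. At Copg1, Psmd14 and Anapc4 the partners were the cWT H3K27ac, cKO Pol II and cKO Ser5P lists. In the cWT list Slc43a2, an amino acid transporter, Tnrc6c, Lrr1 and Snapin met the same 3 lists, and Slc43a2 also met cKO H3K27ac. Among immune genes Cgas and Mavs, of the DNA and RNA sensing pathways, met these 3 lists with a cKO H3K4me3 region.

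The starts of interferon pathway genes were named mostly by the cKO list. Of 30 genes for interferon sensors, factors and receptors, 7 had a cKO region and none a cWT region (23.3% and 0.00%, beside 5.36% and 3.37% of all protein-coding genes). These were Stat2 (chr10:128270526-128270874, signal 20.5) and Irf9 (chr14:55604138-55604443, 15.2), subunits of the complex that carries the type I interferon signal, and Irf8 (chr8:120736909-120737148, 15.6), a myeloid lineage factor. Irf5 (11.6), Mavs (11.1), the adaptor of the RNA sensors, Ddx58 (10.3), the gene of the RNA sensor RIG-I, and Cgas (8.91), the DNA sensor, were the others. None of the 7 was among the 10 cKO regions with a deposited p under 0.05, and 2 of the 7 were in the 50% of the list with the lower p. The shares of all protein-coding genes include 1465 olfactory and vomeronasal receptor genes, none with a region in either list. By the same count AP-1 and immediate early genes stood at 27.8% and 19.4%, and disease-associated microglia genes at 0% and 3.33%.

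Few effectors of the interferon response were in either list. Of 38 interferon-induced effectors, 3 were in the cKO list only, Usp18, which removes ISG15 (10.9), Oas1a (10.7) and Xaf1 (9.07). In the cWT list only was Oasl1, with a signal of 39.9. These were 7.89% and 2.63% of the effectors, beside 4.89% and 2.90% of all protein-coding genes in a single list. The Usp18 region lay 1442 bp past the higher-coordinate end of the gene, so it may not mark the start of Usp18. Of 22 antigen presentation genes, H2-Q7, a class I gene with near-identical copies, and Ifi30 were in the cKO list only, and Ctss in both. The region at H2-Q7 is uncertain for that reason.

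Genes of microglial identity were named more often by the cWT list. Of 38 homeostatic microglia genes, 7 were in the cWT list only and 3 in the cKO list only (18.4% and 7.89%, against 2.90% and 4.89% of all protein-coding genes in a single list). Among the cWT genes were Ltc4s, the leukotriene C4 synthase (signal 25.9), Tyrobp, the DAP12 adaptor (22.99), Entpd1, the ectonucleotidase CD39 (20.1), and Fcrls, an Fc receptor-like gene (16.9). Olfml3 (14.4) and P2ry13, a purinergic receptor (11.6), were also among them. The cKO genes were Siglech (11.5), Itgam, which encodes CD11b (9.03), and Cx3cr1 (6.41), and none of these 3 was in the 50% of the cKO list with the lower p, where 4 of the 7 cWT genes were. Of 30 disease-associated microglia genes, Lpl, lipoprotein lipase, was in the cWT list (chr8:68880981-68881826, signal 19.0) and no gene in the cKO list.

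The defining markers of other brain cells were almost absent from both lists. None of 17 neuron, 14 astrocyte and 12 border macrophage markers had a region at its start. Mbp, of 14 oligodendrocyte lineage markers, and Plac8, of 22 monocyte, neutrophil and lymphocyte markers, had a cKO region, and Kdr, of 14 endothelial and mural markers, a cWT region. Of all 21887 protein-coding genes 1808 were in either list, so groups this small would hold few such genes anyway. Whether other cells were present was not tested by these counts. Of 10 microglial markers, Cx3cr1 and Siglech were in the cKO list, and Fcrls was among those in the cWT list. P2ry12, Tmem119, Csf1r, Sall1, Trem2 and Aif1 were in neither, which in lists of differing regions says nothing of their level.

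**Figure D5:**
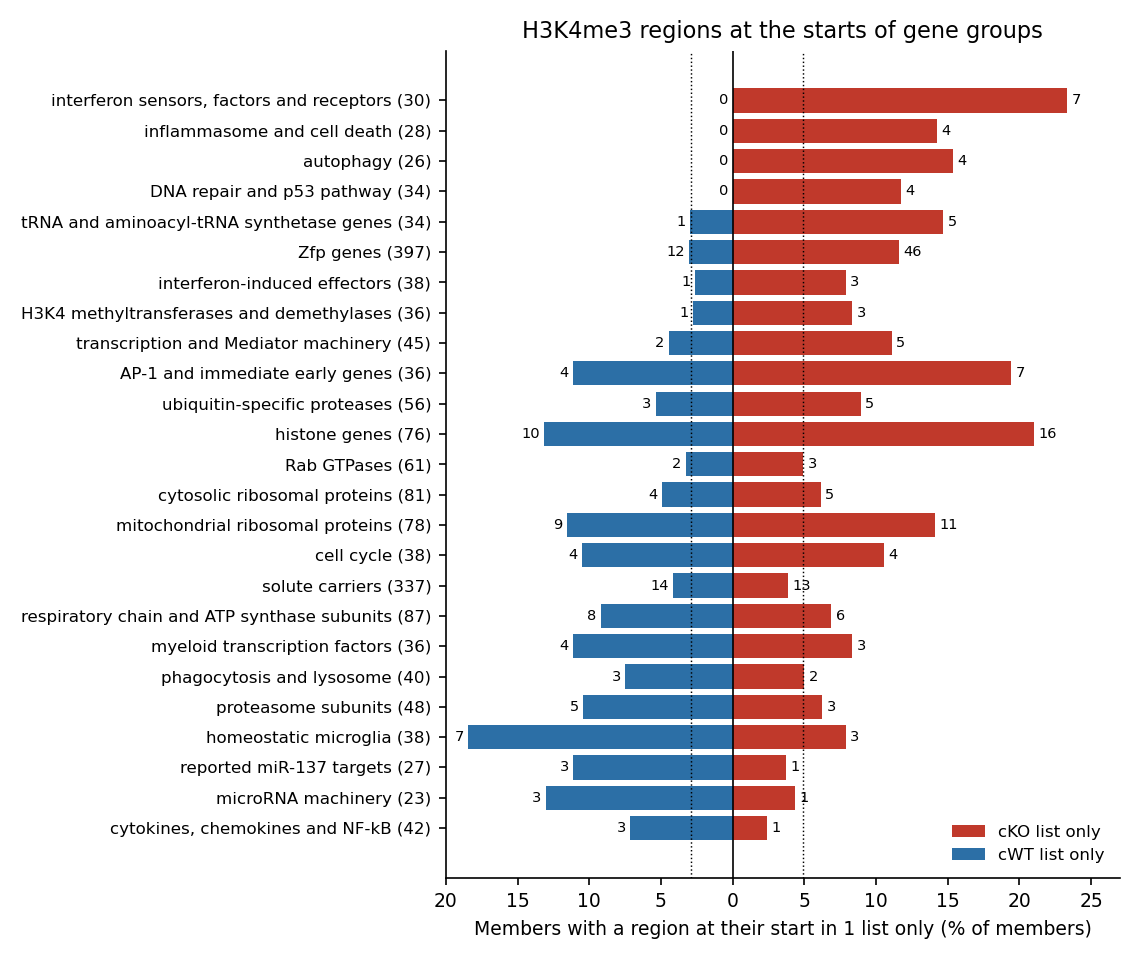
Members of each gene group with a region at their start in the cKO list only (red, right) or the cWT list only (blue, left), as % of members (horizontal axis), with counts at the bar ends and the number of members in parentheses. Dotted lines mark the shares of all protein-coding genes, 4.89% and 2.90%, and only groups with at least 4 such members are drawn.

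Transcription factors were named by both lists. Of 36 myeloid transcription factor genes, Klf2, Klf6 and Tfe3 were in the cKO list only, Bach1, Maf, Mitf and Runx1 in the cWT list only, and Elf4 in both. Bach1, a repressor of heme and oxidative stress genes, had the highest signal of the cWT genes (24.7), and Mitf, a regulator of lysosome genes and a reported miR-137 target, had a region over its start at chr6:97807008-97807642 (22.0). Runx1, a myeloid lineage factor, had a signal of 16.0. Of 36 AP-1 and immediate early genes, 7 were in the cKO list only (Atf4, Batf, Egr1, Ier3, Jun, Jund, Zfp36), 4 in the cWT list only (Atf3, Fos, Fosb, Myc) and 3 in both (Dusp1, Hspa1b, Junb). Of the 11 in a single list 63.6% were cKO, beside 62.8% of all such genes. With genes in both lists counted, 27.8% of the AP-1 group were in the cKO list and 19.4% in the cWT list, and 11.1% and 13.9% of the myeloid factors, beside 5.36% and 3.37% of all protein-coding genes. Fos and Fosb each had 2 abutting cWT regions. The cKO regions of Ier3 and Zfp36 lay 1560 and 1460 bp from the counted starts. The cWT region of Myc lay 1541 bp away and those of Fosb 1383 and 1757 bp. These regions may not mark the starts of those genes. In the 50% of each list with the lower p, 2 of the 7 cKO genes and 0 of the 4 cWT genes were left.

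Cell death, autophagy and DNA repair genes were in the cKO list where they were in a single list. Of 28 inflammasome and cell death genes, Casp8, the initiator caspase (18.5), Bak1 (15.9), Pmaip1 (11.02) and Bbc3 (10.8), which act at the mitochondrial step of apoptosis, were in the cKO list only. Casp4 was in both lists. Of 26 autophagy genes the 4 were Uvrag (22.8), Gabarapl1 (17.5), Atg14 (15.9) and Gabarap (11.1), and of 34 DNA repair and p53 pathway genes Lig1 (20.1), Ercc2 (16.9), Chek2 (16.6) and Lig4 (15.9). No gene of these 3 groups was in the cWT list only, where 2.90% of all protein-coding genes were. With genes in both lists counted, the cKO and cWT shares were 17.9% and 3.57% for cell death and 15.4% and 0% for autophagy. For DNA repair they were 11.8% and 0%, beside 5.36% and 3.37% of all protein-coding genes. Of all genes in a single list 62.8% were cKO, and the counts of these groups are small.

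Zinc finger genes were numerous in the cKO list. Of 397 genes named Zfp, 46 had a cKO region and 12 a cWT region, none both (11.6% and 3.02%, beside 5.36% and 3.37% of all protein-coding genes). Of the 58 genes in a single list 79.3% were thus in the cKO list, beside 62.8% of all such genes. The highest cKO signals were at Zfp367 (26.1), Zfp759 (24.9), Zfp442 (21.7) and Zfp329 (20.5), and the highest cWT signals at Zfp143 (30.3), Zfp574 (19.8), Zfp661 (19.3) and Zfp775 (18.7). The 46 genes lay on many chromosomes, with 12 of the 93 Zfp genes of chromosome 7 as the largest number. Many of these genes are near-identical copies in clusters, so reads could have been placed on a copy, and the name also covers unrelated genes such as Zfp36, an RNA-binding protein gene. In the 50% of each list with the lower p the counts were 18 and 7.

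Histone genes were in both lists. Of 76 histone genes 16 had a cKO region and 10 a cWT region (21.1% and 13.2%, beside 5.36% and 3.37% of all protein-coding genes), from 10 and 6 distinct regions, since neighbouring histone genes share them. H1f2 stood highest in the cKO list (28.8) and the linker histone genes H1f3 (19.2) and H1f4 (18.3) in the cWT list. In the 50% of each list with the lower p the counts were 4 and 3. Histone genes are also near-identical copies.

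Housekeeping groups were split between the lists. Of 78 mitochondrial ribosomal protein genes 11 were in the cKO list and 9 in the cWT list, with the highest signals at Mrpl19 (24.4) in the cKO list and Mrpl40 (19.5) in the cWT list. Of 87 respiratory chain and ATP synthase genes the counts were 6 and 8, with the highest signals at Uqcrq (22.9) and Ndufb11 (23.9). Cytosolic ribosomal proteins gave 5 and 4 of 81, proteasome subunits 3 and 5 of 48, solute carriers 13 and 14 of 337 with 2 in both. With genes in both lists counted, solute carriers stood at 4.45% and 4.75%, cytosolic ribosomal proteins at 6.17% and 4.94%, proteasome subunits at 6.25% and 10.4%, respiratory genes at 6.90% and 9.20% and mitochondrial ribosomal proteins at 14.1% and 11.5%. The shares of all protein-coding genes were 5.36% and 3.37%. Of 34 tRNA and aminoacyl-tRNA synthetase genes 5 (Tars, Qars, Rars, Cars2 and Hars2) were in the cKO list and Sars2 in the cWT list. The Hars2 region lay 1266 bp from the position counted as its start, and may not mark that gene. Hoxb4 was the Hox gene of 39 with a region, in the cKO list. No olfactory or vomeronasal receptor gene of 1465 and no Fox, Sox, Pax or Lhx gene of 80 had a region at its start in either list.

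Genes linked to H3K4 methylation were in both lists, though none of the Kmt2, Setd1 and Kdm genes of the group had a region at its start. Of 36 genes for H3K4 methylation, Bptf, a chromatin remodeller that reads H3K4me3 (18.6), Hcfc1, a cofactor of SET1 and MLL (12.5), and Men1, the menin subunit of MLL complexes (11.03), were in the cKO list only. Rbbp5, a core subunit of all these complexes, was in the cWT list only (15.4), and Ing1 and Smyd3 in both. Of 44 Polycomb and other chromatin regulators, Crebbp (16.5) was in the cKO list, Bmi1, a Polycomb subunit (12.1), in the cWT list and Dnmt3a in both. Of 45 genes of the transcription machinery, 5 were in the cKO list, among them Med23, a Mediator subunit (19.4), and 2 in the cWT list, among them Cdk12, a kinase of the polymerase tail (22.8). With genes in both lists counted, the cKO and cWT shares were 13.9% and 8.33% for H3K4 methylation, 4.55% and 4.55% for Polycomb and other regulators and 11.1% and 4.44% for the transcription machinery, beside 5.36% and 3.37% of all protein-coding genes.

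Most microRNA-related genes were in neither list, 19 of 23 genes of the machinery and 22 of 27 reported miR-137 targets. The same held for protein-coding genes at large, of which 1808 of 21887 were in either list. Of 23 genes of the microRNA machinery, Tnrc6c, a partner of Argonaute in silencing (20.7), Hnrnpa2b1, which binds microRNAs and their precursors (19.4), and Khsrp, a processing factor (14.8), were in the cWT list. Ipo8, an importin linked to Argonaute (19.2), was in the cKO list. Of 27 reported miR-137 targets, Mitf, Mib1 (16.9) and Esrra (15.9) were in the cWT list, Gsk3b (7.17) in the cKO list, and Cdk6 in both. With genes in both lists counted, the cKO and cWT shares were 4.35% and 13.04% for the machinery. For the reported targets they were 7.41% and 14.8%, beside 5.36% and 3.37% of all protein-coding genes. These counts are small, and of all genes in a single list 62.8% were cKO.

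Regions away from coding starts made up 274 of the cKO and 151 of the cWT list. Of these, 26.3% and 28.5% lay at a start or end of a noncoding gene, 34.7% and 35.8% elsewhere inside a protein-coding gene and 39.1% and 35.8% between genes. Their median width was 342.5 bp in the cKO list and 365 bp in the cWT list, beside 393 and 404 bp at gene starts. The cKO list held 2 regions on the mitochondrial genome, which carries no nucleosomes, and the cWT list none. By chromosome the cKO share ran from 52.1% on chromosome 11 to 73.5% on chromosome 6 among the autosomes, beside 61.5% overall (59.4 to 63.5%).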

How the data were processed

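H3K4me3 was profiled in sorted microglia of 2 genotypes by CUT&Tag, per the labels' protocol; the series text calls the assay ChIP-seq. HOMER 4.11, bedtools 2.30.0, MACS2 2.2.7.1 and Bowtie2 2.4.4 were used, per the submitters' processing notes. The rule for genotype-specific regions and the merging of replicates: not given in the sources used here. The deposited lists give each region a score, a p-value, its adjusted form and a signal on an unstated scale. In both H3K4me3 lists the deposited score, capped at 1000, was a function of the deposited p-value, so it was not used further. Names are numbered from 0: the cKO list keeps 1331 of at least 8495 numbered regions, 15.7%, and the cWT list 834 of at least 7960, 10.5%.

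Positions are on mm10, counted from 1, with gene starts from RefSeq (GRCm38.p6). Of 21887 protein-coding genes 17492 had a strand-aware start; for the rest either gene end stood in. Shares have 95% exact Clopper-Pearson intervals, differences have Newcombe intervals, and the comparisons of lists used Fisher's exact test (two-sided) with Benjamini-Hochberg adjustment over 10 comparisons. Regions are not replicates, so each p describes the lists. The members, gene lists and tests were chosen with earlier results of these data known.

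Named genes followed a rule: Mir137 and Spi1; per list the 5 genes with the most regions, the 10 gene-start regions of highest signal, the 5 of lowest p, the 5 meeting the most other antibodies, and up to 4 members per gene list; and the 10 genes with the closest pairs. Other names were chosen after their values were seen. The symbols Mx1 and Mx2 were not matched, and some genes that meet the rule are not reported here. Scripts ran on scipy 1.17.1, pandas 2.3.3, numpy 2.4.6, matplotlib 3.10.9 and Python 3.11.15, and the counting functions were tested on simulated regions. Alternatives changed the window, the overlap, the genes, the width, the p-value and the chromosomes used.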

Additional observations from a re-analysis of the deposited data

How the results depend on the processing

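No paired analysis was possible because the lists hold no value per replicate, and for the same reason no replicate could be left out. The gene-start share kept its sign and missed the threshold under all 10 alternatives run, and the cKO share of regions stayed between 60.4 and 63.1%. The overlap with the cKO Pu.1 list passed without chromosomes X and Y (2.38 percentage points, adjusted p = 0.0353 by Fisher's exact test) and its adjusted p ran from 0.0353 to 1 over the alternatives. These differences turned sign without passing the exact test: cKO Pol II 0.36 and cKO Ser5P 0.61 points with 50% of the region overlapped, cWT Pol II -0.31 and cWT Ser5P -0.10 points at gene starts only, cWT Pu.1 0.19 points without regions under 300 bp, and CpG-rich promoters 0.93 points in the 50% of each list with the lower p. The cause was not tested. Among regions with a deposited p under 0.05, the gene-start share of H3K4me3 minus that of H3K27ac was -27.8 points, of Pol II -27.6, of Ser5P -42.8 (adjusted p = 0.00752 by Fisher's exact test, the lowest of the 4 and the only value under 0.05) and of Pu.1 25, and the cKO Ser5P overlap difference was 10 points. Then 1 cKO and 3 cWT genes had a region at their start, 0 both, and 0 regions met the other list; median widths were 433 and 449.5 bp and median signals 35.1 and 36.1. In the 50% of each list with the lower p, 597 cKO, 378 cWT and 26 shared genes were left, as fewer regions were counted; 16 cKO and 16 cWT regions overlapped and 24 and 24 lay within 1 kb; median widths were 364 and 412 bp and signals 17.6 and 17.6. Without regions under 300 bp the median widths were 424.5 and 453 bp, 64 genes were in both lists and 51 and 53 regions lay within 1 kb of the other list.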
